A study of Mus musculus with 20 samples.

Results

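The genes described here are 30 nuclear receptors of the mouse, taken by gene symbol from a fixed list, among the 56884 genes listed for male liver and the 18149 listed for female liver. The list leaves out the clock receptors, the glucocorticoid receptor, Ppara, Nr0b2 (SHP) and Nr4a1, and with those and the remaining relatives the family comes to 49 listed genes. All 30 receptors were listed in males, and 29 were listed in females, where Vdr was not listed. The whole livers came from mice aged 11 to 14 weeks, of either sex, carrying an XTR (eXpressed, Trapped, Restored) gene-trap cassette in an intron of Midn, which encodes midnolin, a nuclear protein that brings transcription factors to the proteasome. In the group called Midn-T, Albumin-Cre, which is active in hepatocytes, had turned the cassette into its trapped state. In the group called WT, which the labels give as genotype Midn XTR, the cassette was in its expressed state, and whether these mice carried Cre was not given in the sources used here. In either sex, 3 mice of each group were profiled by RNA-seq and 2 of each group by ATAC-seq, which reads open chromatin. Only hepatocytes carry the trap, while the RNA came from every cell of the tissue, so fewer cells of a type and less RNA per cell cannot be told apart.

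Nuclear receptors are transcription factors that most often act on genes directly, and many of them are switched by a small lipophilic ligand such as a bile acid, an oxysterol, a retinoid, a steroid or a drug. A conserved zinc-finger domain reads a short hexamer of DNA, most commonly AGGTCA, and a pair of receptors, frequently with a retinoid X receptor (RXR) as one partner, reads a pair of such hexamers whose spacing and orientation differ between receptors. In hepatocytes, receptors of this family govern bile acid synthesis and transport, lipogenesis, drug metabolism and the hepatocyte identity program. The comparison of Midn-T with WT asks whether the receptors' own mRNAs changed, and the comparison of the 2 sexes asks whether the change differed between males and females.

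The deposited values hold 1 mean per gene over the 6 libraries of a sex, with a log2 fold change between Midn-T and WT, a standard error and a p-value, so a receptor's value in a single mouse cannot be shown and the depth of each library is unknown. Every value after the sign ± is that standard error, every interval is a 95% interval computed from it, and a gene was called when its Benjamini-Hochberg adjusted p from the Wald test of the authors' DESeq2 run was under 0.1. Midn itself had a mean normalized count of 1672 in males and 1357 in females, with a log2 fold change of 0.10 ± 0.12 in males and of 0.00083 ± 0.10 in females. The intervals ran from -0.13 to 0.33 and from -0.20 to 0.20, so neither sex showed a fall. That count sums exons on both sides of the trap, and why it did not fall was not tested. The paper reports less Midn by qPCR, induced GFP and no reads downstream of the trap in Midn-T livers. Values per exon were not available here, so the labels were not checked, and the groups are named as labelled. The hepatocyte markers Alb, Apoa1, Ttr, Cps1, Asgr1 and Cyp2e1 had mean normalized counts from 7593 to 1.73e+06 in males and from 8404 to 2.33e+06 in females.

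The receptors differed widely in level. On the scale of mean normalized count per kb of exon, Hnf4a, the master regulator of hepatocyte genes, stood first in both sexes, at 4606 in males and 3948 in females. Rxra, the common partner of the other receptors, lay at 2211 per kb in males and 2023 in females. Nr1i3, which encodes the drug sensor CAR, lay at 2036 in males and 3235 in females, so that it stood below Rxra in males and above it in females. The bile acid receptor FXR, encoded by Nr1h4, followed at 1066 per kb in males and 921 in females, next to the pregnane X receptor Nr1i2 at 955 and 929. These 5 genes were the first 5 in both sexes.

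A middle group held receptors of sterols, thyroid hormone, estrogen and retinoids. The oxysterol receptor LXR alpha, Nr1h3, had 372 per kb in males and 376 in females, and its relative Nr1h2 had 199 and 204. Nr5a2 (LRH-1), a regulator of bile acid and cholesterol genes, had 328 and 413, and Thrb, the main thyroid hormone receptor of hepatocytes, had 256 and 274. Of the 30 genes, 17 reached 100 per kb in males and 17 in females. Those under that level included Pparg at 36.5 per kb in males and 29.7 in females, Rarb at 22.0 and 42.1, Esrrg at 22.6 and 52.1, and Rxrg at 13.9 and 23.9.

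At the bottom stood Nr2f1, at 3.48 per kb in males and 4.40 in females, Nr4a2, at 3.75 and 2.18, and Hnf4g, at 3.55 and 12.4. The vitamin D receptor Vdr had 0.50 per kb in males, a mean normalized count of 2.88 over 6 libraries. The means of the 2 sexes were normalized apart from each other, and the spread between mice was not analysed here for a level, so neighbours in this order could not be tested against each other and the sexes' levels stand side by side only. With that limit, the mean normalized count of Esr1, the estrogen receptor alpha gene, was 1730 in males and 3373 in females.

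**Figure D1:**
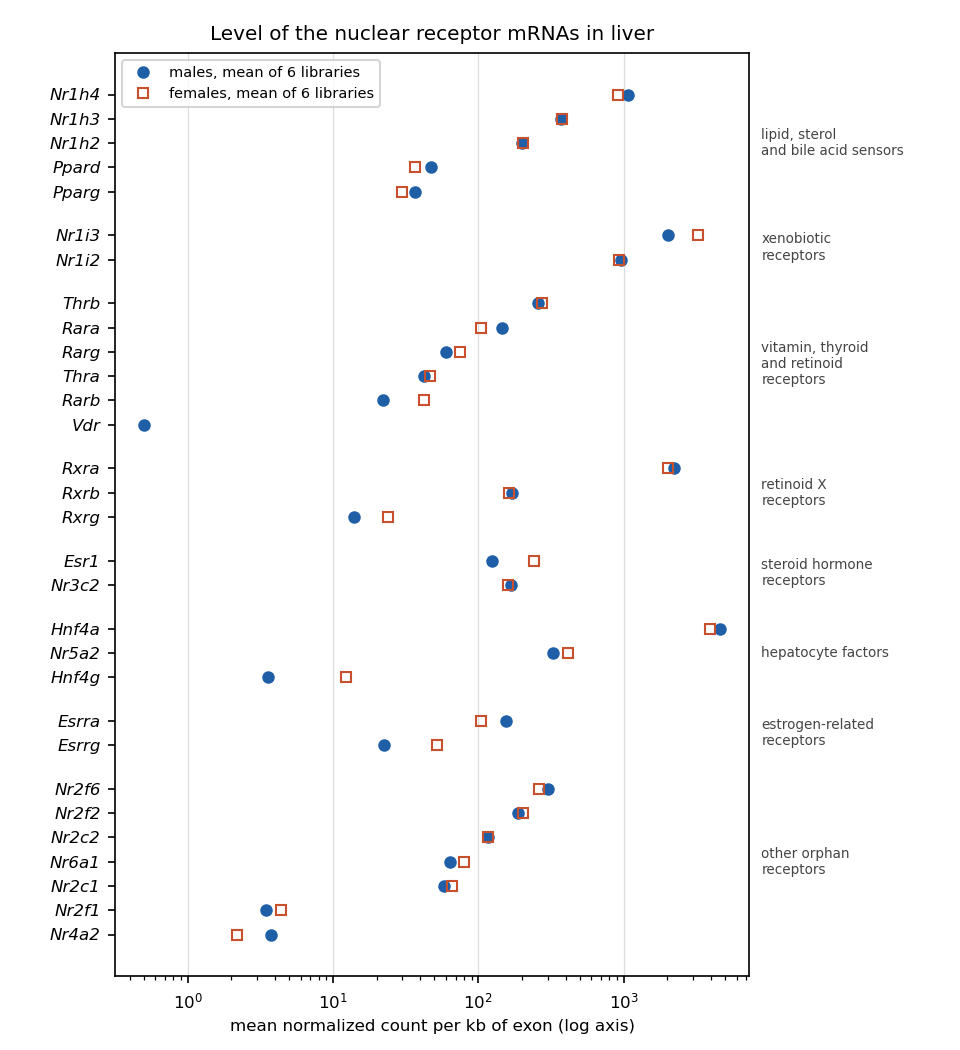
Mean normalized count per kb of exon (horizontal log axis) of each nuclear receptor gene (vertical axis, grouped by role), with a filled circle for the mean of 6 male libraries and an open square for the mean of 6 female libraries. Hnf4a lies furthest right in both sexes, at 4606 and 3948, and Vdr, drawn for males only, furthest left at 0.50.

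None of the receptor mRNAs was called in either sex. In males 28 of the 30 receptors had an adjusted p, and 0 of the 28 were called, where 1.21% of all 15168 genes tested were called, 0.712% higher and 0.494% lower in Midn-T. The smallest adjusted p among them was 0.305. Vdr and Hnf4g, with mean normalized counts of 2.88 and 15.6 in males, had no adjusted p. In females 29 receptors were tested and 0 were called, against 0.237% of all 18149 genes, 0.0661% higher and 0.171% lower in Midn-T, and every adjusted p of a receptor was 1.00. At an unadjusted p under 0.05, 4 of 28 receptors (14.3%) passed in males, against 9.86% of all genes tested, and 0 of 29 passed in females, against 2.96%.

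The point estimates lay on both sides of 0. In males the log2 fold change was above 0 for 14 receptors and below 0 for 14, with a median of 0.014, and the median over all genes tested was -0.010. In females 14 lay above 0 and 15 below, with a median of -0.014, beside -0.0014 over all genes. Since a p that misses the threshold does not show that a value did not differ, the intervals say how large a change could have been. In males the interval lay wholly within 0.5 of 0 on the log2 scale for 17 of 28 receptors (60.7%), beside 44.3% of all genes, and within 1 of 0 for 24. In females it lay within 0.5 for 22 of 29 (75.9%), beside 52.6% of all genes, and within 1 for 28.

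**Figure D2:**
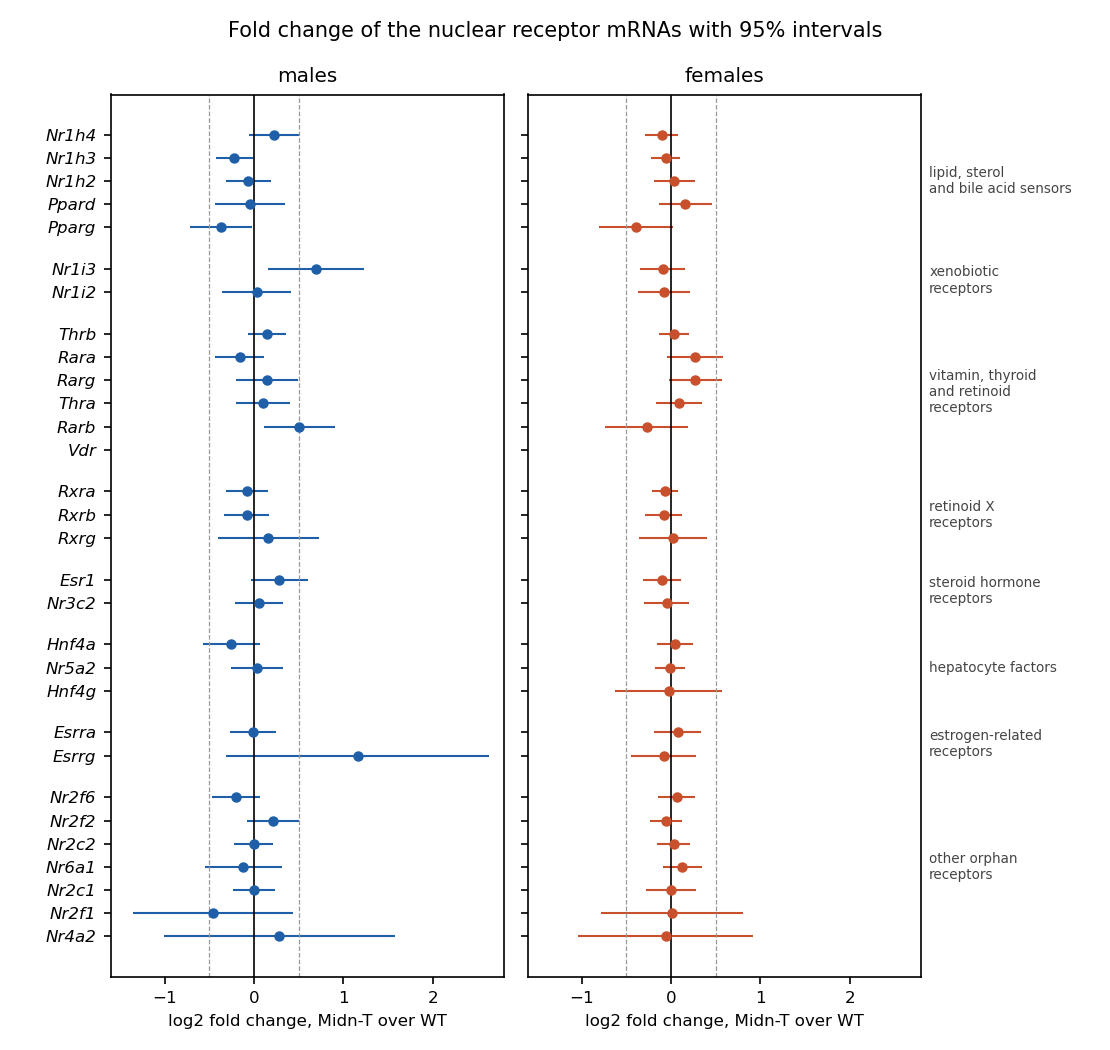
Log2 fold change, Midn-T against WT (horizontal axis) of each nuclear receptor mRNA (vertical axis, grouped by role) in males on the left and females on the right, with points for the estimate and bars for its 95% interval; dashed lines stand at 0.5 on either side of 0. The widest male interval is that of Esrrg, from -0.31 to 2.63, and Vdr in both sexes and Hnf4g in males have no point because they had no adjusted p.

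Among the sensors of lipids, sterols and bile acids, the 2 estimates that passed an unadjusted p under 0.05 in males were both below 0. Nr1h3 had a log2 fold change of -0.22 ± 0.11 in males (unadjusted p = 0.0357, adjusted p = 0.451) and of -0.060 ± 0.084 in females. Pparg, known for fat storage in adipocytes and in fatty liver and also expressed in macrophages, had -0.37 ± 0.18 in males (unadjusted p = 0.0372, adjusted p = 0.459) and -0.39 ± 0.21 in females (unadjusted p = 0.0612). The Pparg intervals ran from -0.72 to -0.022 in males and from -0.80 to 0.018 in females, so both sexes allowed a decrease of about the same size. Nr1h4 had 0.22 ± 0.14 in males and -0.11 ± 0.096 in females. Nr1h2 had -0.063 ± 0.13 and 0.035 ± 0.12, and Ppard, which encodes the broadly expressed PPAR delta, had -0.048 ± 0.20 and 0.16 ± 0.15.

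Markers of liver macrophages (Kupffer cells), which express both Pparg and Nr1h3, moved in the same direction as those 2 genes in males. All 8 of the Kupffer cell markers lay below 0 in males, with a median log2 fold change of -0.78 and a range from -2.52 for Marco to -0.57 for Clec4f. Of these, 6 (75%, beside 9.86% of all genes) passed an unadjusted p under 0.05 and 0 were called. In females all 8 lay above 0, with a median of 0.11, while Pparg lay at -0.39. The lymphocyte markers also lay below 0 in males, in 6 of 6 tested, with a median of -0.49. The 4 erythroid markers lay below 0 in males (median -0.30) and above 0 in females (median 0.17), the 4 cholangiocyte markers lay above 0 in both (medians 0.32 and 0.40, with 1 and 2 at an unadjusted p under 0.05), and 0 of these were called. None of the defining Kupffer markers was at 0, their lowest mean normalized count being 270.0 in males, that of Timd4. The part of these cells in the Pparg and Nr1h3 values was not tested.

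The xenobiotic receptor CAR gave the largest male estimate with an unadjusted p under 0.05. Nr1i3 had a log2 fold change of 0.69 ± 0.27 in males, a 1.61-fold higher level with an interval from 1.11-fold to 2.34-fold (unadjusted p = 0.0117, adjusted p = 0.305). In females the estimate was -0.093 ± 0.13, with an interval from -0.35 to 0.16. Its partner in drug response, Nr1i2, had 0.030 ± 0.20 in males and -0.080 ± 0.15 in females.

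Among the receptors of vitamins, thyroid hormone and retinoids, Rarb stood apart in males. Rarb encodes retinoic acid receptor beta, whose gene is itself a classical retinoic acid target, and had a log2 fold change of 0.51 ± 0.20 in males (unadjusted p = 0.0124, adjusted p = 0.312) and of -0.27 ± 0.23 in females. Rara had -0.16 ± 0.14 in males and 0.27 ± 0.16 in females, and Rarg had 0.15 ± 0.18 and 0.27 ± 0.15. Thrb had 0.14 ± 0.11 and 0.034 ± 0.084. Thra, which overlaps the clock receptor gene Nr1d1 on the opposite strand, had 0.10 ± 0.15 and 0.090 ± 0.13, from reads that the authors counted by strand.

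The receptors that serve as partners or that hold the hepatocyte program gave no unadjusted p under 0.05. Rxra had -0.077 ± 0.12 in males and -0.068 ± 0.075 in females, and Rxrb had -0.081 ± 0.13 and -0.083 ± 0.10. The scarcer Rxrg had 0.16 ± 0.29 and 0.024 ± 0.20. Hnf4a had -0.25 ± 0.16 in males, with an interval from -0.58 to 0.070, and 0.043 ± 0.10 in females, with one from -0.16 to 0.25. Nr5a2 had 0.032 ± 0.15 and -0.014 ± 0.085. Its intervals left room for a change of at most 0.32 on the log2 scale in males and 0.18 in females.

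The steroid hormone and estrogen-related receptors were more varied. Esr1 had 0.28 ± 0.16 in males (unadjusted p = 0.0805) and -0.099 ± 0.11 in females, and the mineralocorticoid receptor Nr3c2 had 0.055 ± 0.14 and -0.047 ± 0.13. Esrra, a regulator of mitochondrial genes, had -0.012 ± 0.13 and 0.074 ± 0.13. Esrrg, its relative induced in fasted liver, had the largest estimate of the receptors with an adjusted p, 1.16 in males, but with a standard error of 0.75 at a mean normalized count of 140, and -0.082 ± 0.19 in females. The single mice behind that value could not be examined.

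Of the remaining orphan receptors, Nr2f6 had -0.20 ± 0.14 in males and 0.062 ± 0.10 in females, and Nr2f2 (COUP-TFII), also a gene of venous endothelium, had 0.21 ± 0.15 and -0.057 ± 0.092. The testicular receptors Nr2c1 and Nr2c2 were the closest to 0 in males, at -0.0038 ± 0.12 and -0.0021 ± 0.11, and lay at 0.0030 ± 0.14 and 0.030 ± 0.094 in females. Nr6a1, a germ cell factor, had -0.12 ± 0.22 and 0.13 ± 0.11. Nr2f1 and Nr4a2, with mean normalized counts from 17.9 to 30.8, had wide intervals. That of Nr2f1 ran from -1.36 to 0.43 in males and from -0.79 to 0.81 in females, and that of Nr4a2, an immediate early gene, from -1.01 to 1.57 and from -1.04 to 0.92. The interval of Hnf4g in females ran from -0.63 to 0.58.

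Whether the sexes differed was tested for the 28 receptors with an adjusted p in both tables, by a two-sided z-test on the male minus the female log2 fold change, which compares 3 male and 3 female Midn-T mice each with their own WT. None of the 28 was called (smallest adjusted p = 0.419), where 0.337% of the 15129 genes tested in both sexes were called. At an unadjusted p under 0.05, 3 receptors (10.7%) passed, against 7.09% of all genes. Nr1i3 differed by 0.78 ± 0.30 (unadjusted p = 0.00962, adjusted p = 0.419), Rarb by 0.78 ± 0.31 (unadjusted p = 0.0118, adjusted p = 0.451) and Rara by -0.43 ± 0.21 (unadjusted p = 0.0410, adjusted p = 0.671). Esr1 followed at 0.38 ± 0.20 (unadjusted p = 0.0507) and Nr1h4 at 0.33 ± 0.17 (unadjusted p = 0.0583). The estimates had opposite signs in the sexes for 20 of 28 receptors and the same sign for 8, beside 7788 and 7341 of all genes. Pparg was among those with the same sign, with a difference of 0.021 ± 0.27 whose interval ran from -0.52 to 0.56.

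**Figure D3:**
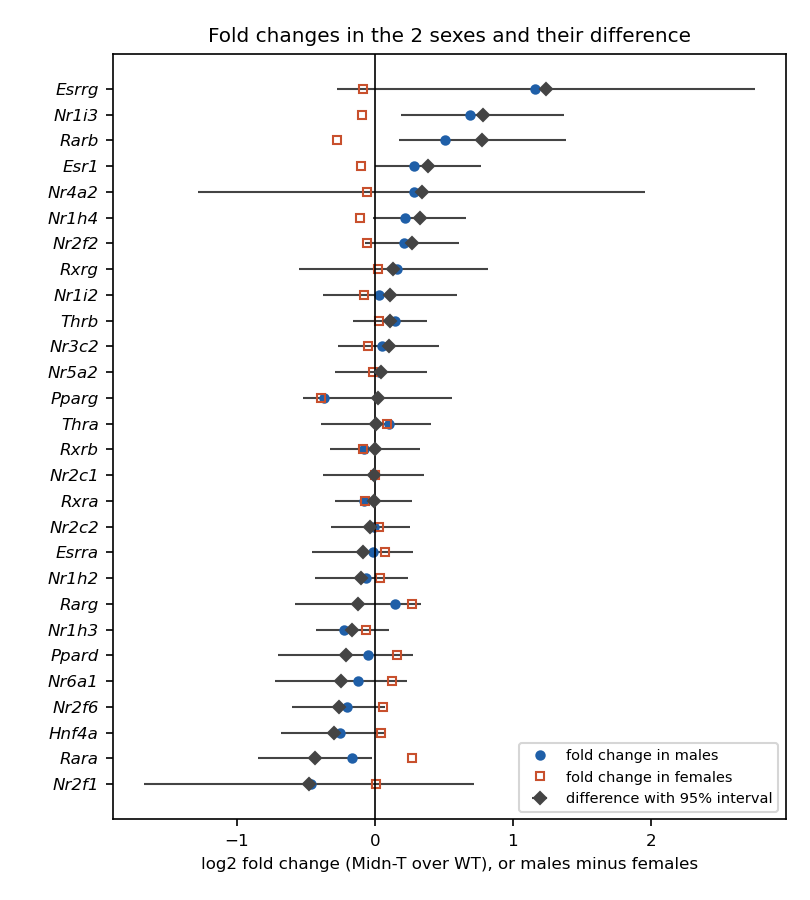
Log2 fold changes between Midn-T and WT in males (filled circles) and in females (open squares), and the male minus the female value (diamonds) with its 95% interval (bars), on the horizontal axis for the 28 receptors tested in both sexes. Nr1i3, Rarb and Rara are the 3 receptors whose interval of the difference does not cross 0.

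The receptors act through other genes, so the listed target genes of each receptor, the cofactors and the enzymes that make or clear ligands were read in the same tables. Over 11 target lists with 99 genes in all, 6 of 89 tested genes were called in males, 5 higher and 1 lower in Midn-T, and 2 of 94 in females, 1 higher and 1 lower. As shares these were 6.74% beside 1.21% of all male genes and 2.13% beside 0.237% of all female genes. The lists were written with results of these data known, so these shares are a description. In males 66 of the 89 lay above 0, with a median of 0.13, and in females 40 of 94, with a median of -0.018.

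Of the 3 bile acid genes that FXR lowers, 2 were called, both higher in male Midn-T livers (66.7%, beside 1.21% of all genes tested), and 0 of 3 were called in females. Slc10a1, which encodes NTCP, the uptake transporter of bile acids, rose by 0.72 ± 0.15 (adjusted p = 0.000884), and Cyp8b1, the sterol 12 alpha-hydroxylase that sets the makeup of the bile acid pool, rose by 0.74 ± 0.23 (adjusted p = 0.0949, which does not hold at 0.05). Cyp7a1, the rate-limiting enzyme of bile acid synthesis, had 0.46 ± 0.23 (unadjusted p = 0.0437, adjusted p = 0.488). In females the 3 genes had 0.035 ± 0.096, -0.010 ± 0.40 and -0.64 ± 0.53. Cyp8b1 is also listed among the targets of HNF4A and NR5A2, where it was the gene called, 1 of 14 and 1 of 7 tested in males (7.14% and 14.3%, beside 1.21% of all genes).

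Nr0b2 encodes SHP, the receptor-like repressor that FXR induces and that holds back Cyp7a1 and Cyp8b1. It had -0.55 ± 0.23 in males (unadjusted p = 0.0176, adjusted p = 0.355) and 0.41 ± 0.13 in females (unadjusted p = 0.00187, adjusted p = 0.452). The difference between the sexes, -0.97 ± 0.27, passed the test at 0.1 but not at 0.05 (adjusted p = 0.0939). Slc10a1 also differed, by 0.68 ± 0.18 (adjusted p = 0.0475). Of the FXR-induced genes, 0 of 6 tested were called in males and 1 of 7 (14.3%, beside 0.237% of all genes) in females. That gene was Pltp, the phospholipid transfer protein and also an LXR target, which rose by 0.80 ± 0.19 in females (adjusted p = 0.0144). Pltp had 0.31 ± 0.23 in males. Abcb11, the bile salt export pump, had -0.067 ± 0.14 in males and 0.098 ± 0.092 in females.

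The PXR and CAR targets lay mostly above 0 in males and mostly below 0 in females, at 14 of 16 and 11 of 18 tested. Their medians were 0.23 in males and -0.016 in females. The 6 hepatocyte markers moved with them, with 5 above 0 in males (median 0.090) and all 6 below 0 in females (median -0.14), and their part in these values was not tested. Slco1a4, an organic anion uptake transporter, rose by 0.76 ± 0.21 in males (adjusted p = 0.0467) and had -0.33 ± 0.14 in females, and this difference of 1.09 ± 0.25 passed the test (adjusted p = 0.0132). Abcc3, an export pump of bile acid conjugates, rose by 0.48 ± 0.12 in males (adjusted p = 0.0273) and had 0.077 ± 0.091 in females. The classical CAR target Cyp2b10 had 0.95 ± 1.12 in males and 0.14 ± 0.18 in females. Cyp2b9, a female-biased relative, had a male mean normalized count of only 13.0, without an adjusted p, and a log2 fold change of 4.37 ± 1.12, beside a female mean of 24118 and 0.14 ± 0.15. Nr1i3 and this list thus had male estimates on the same side, in the same 6 libraries. That side was not particular to this list. Over all target lists, 66 of 89 tested genes lay above 0 in males and 23 below, where 47.7% of all genes lay above 0. Above 0 were 11 of 14 LXR targets, and 2 of 6 mineralocorticoid receptor targets. Of the 89 target genes tested in both sexes, 3 (3.37%) were called for a difference between the sexes, beside 0.337% of all genes. These were Slco1a4, Slc10a1 and Nr0b2. At an unadjusted p under 0.05 of the same z-test, 15 (16.9%) passed, beside 7.09% of all genes.

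Among the LXR targets, 1 of 14 (7.14%) was called in males, beside 1.21% of all genes, and 1 of 14 (7.14%) in females, beside 0.237%. The male gene was Fasn, the fatty acid synthase, which rose by 0.85 ± 0.26 (adjusted p = 0.0847, not a call at 0.05), and the female gene was Pltp. Fasn had 0.30 ± 0.15 in females. The cholesterol exporters Abca1 and Abcg1 had -0.044 ± 0.11 and -0.30 ± 0.22 in males. In females they had 0.0049 ± 0.10 and 0.080 ± 0.18. At an unadjusted p under 0.05, 6 of the 14 (42.9%, beside 9.86% of all genes) passed in males and 3 (21.4%, beside 2.96%) in females. The male list median was 0.21 while Nr1h3 itself had -0.22.

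Among the retinoic acid targets, which include Rarb itself, Tgm2, the tissue transglutaminase, fell by 0.38 ± 0.11 in males (adjusted p = 0.0760, not a call at 0.05), and no gene was called in females (0 of 7, and 0 of 7 also at an unadjusted p under 0.05). The retinoic acid-clearing enzymes Cyp26a1 and Cyp26b1 had 0.13 ± 0.27 and 0.42 ± 0.92 in males and -1.03 ± 1.12 and -1.50 ± 1.36 in females. Tgm2 was the only call of the 7 genes tested in males (14.3%, beside 1.21% of all genes). At an unadjusted p under 0.05, 3 of the 7 passed in males (42.9%, beside 9.86% of all genes). In males 5 of the 7, Rarb among them, lay above 0 and 2 below, with a median of 0.25. In females 1 lay above 0 and 6 below, with a median of -0.11. Rarb and Tgm2 thus had male estimates of opposite sign, and most of the list lay on the side of Rarb.

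Among the mineralocorticoid receptor targets, which the glucocorticoid receptor also drives, 0 of 6 were called in males and 1 of 6 (16.7%, beside 0.237% of all genes) in females. Fkbp5, a steroid receptor cochaperone, fell by 0.66 ± 0.18 in females (adjusted p = 0.0816, not a call at 0.05) and had -0.30 ± 0.53 in males. All 6 lay below 0 in females, with a median of -0.27, including Sgk1 at -0.22 ± 0.15 and Tsc22d3 at -0.50 ± 0.17 (unadjusted p = 0.00344, adjusted p = 0.614).

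No target of the thyroid hormone receptors, of PPARG and PPARD, or of the estrogen-related receptors was called, with 6, 9 and 10 genes tested in males and 7, 10 and 10 in females. Of all genes, 1.21% were called in males and 0.237% in females. At an unadjusted p under 0.05 each of these 3 lists had 1 gene in males (16.7%, 11.1% and 10%, beside 9.86% of all genes). In females they had 1, 3 and 1 (14.3%, 30% and 10%, beside 2.96% of all genes). The thyroid hormone targets Dio1 and Thrsp had 0.041 ± 0.28 and 0.73 ± 0.53 in males, and -0.032 ± 0.14 and 0.12 ± 0.29 in females. Cd36 and Fabp4, lipid uptake genes driven by PPARs, had 0.28 ± 0.21 and -0.081 ± 0.22 in males, and -0.0064 ± 0.35 and -0.26 ± 0.23 in females. Idh3a and Acadm, mitochondrial targets of the estrogen-related receptors, had 0.22 ± 0.16 and 0.065 ± 0.13 in males, and 0.023 ± 0.13 and -0.14 ± 0.081 in females. The HNF4A targets Apoa2 and Apob, apolipoprotein genes, had 0.24 ± 0.11 and -0.080 ± 0.12 in males, and -0.12 ± 0.070 and 0.017 ± 0.086 in females.

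**Figure D4:**
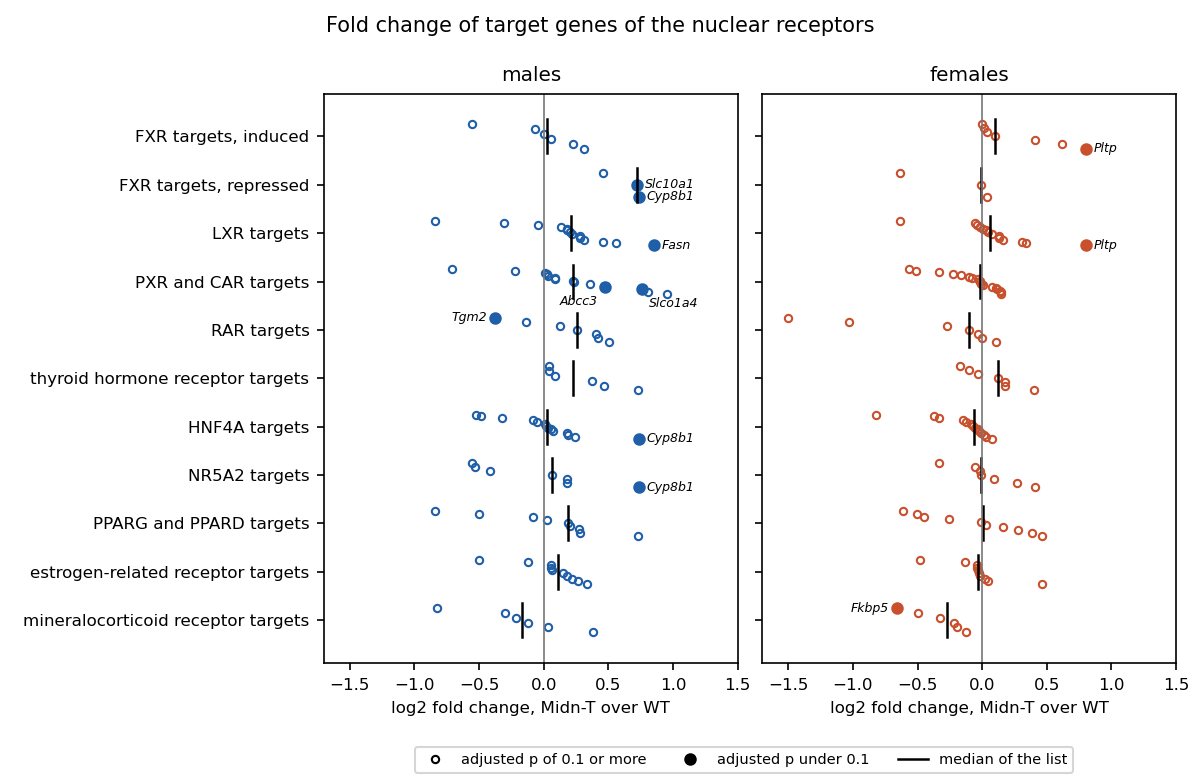
Log2 fold change, Midn-T against WT (horizontal axis) of each tested target gene, by receptor list (vertical axis), in males on the left and females on the right; filled points have an adjusted p under 0.1 and black bars mark the list medians. Slc10a1 and Cyp8b1 in the FXR-repressed list, Fasn, Slco1a4, Abcc3 and Tgm2 are filled in males, and Pltp and Fkbp5 in females; a gene in several lists is drawn in each.

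The cofactors that the receptors share did not pass the test. None of 13 coactivators and none of 10 corepressors was called in either sex, beside 1.21% of all genes in males and 0.237% in females. In groups this small, 0 calls do not set them apart from all genes. None had an unadjusted p under 0.05, beside 9.86% of all genes in males and 2.96% in females. Their log2 fold changes ran from -0.22 to 0.31 in males and from -0.20 to 0.16 in females. Of the enzymes and carriers of ligands, 2 of 24 tested (8.33%) were called in males, beside 1.21% of all genes, and 1 of 25 (4%) in females, beside 0.237%. At an unadjusted p under 0.05, 9 of the 24 (37.5%) passed in males, beside 9.86% of all genes, and 1 of the 25 (4%) in females, beside 2.96%. Sult1e1, the sulfotransferase that inactivates estrogens, was called in both and rose by 3.45 ± 0.75 in males (adjusted p = 0.00211) and by 4.63 ± 0.56 in females (adjusted p = 6.02e-13), at low mean normalized counts of 25.4 and 43.6. Cyp8b1 was the other. Esr1, whose ligand Sult1e1 sulfates, had the opposite signs given above.

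Of 12 genes of the FOXA, HNF1, ONECUT and C/EBP factors 0 were called in either sex, beside 1.21% of all genes in males and 0.237% in females. At an unadjusted p under 0.05, 1 (8.33%, beside 9.86% of all genes) passed in males and 2 (16.7%, beside 2.96%) in females. The Krüppel-like factors also gave 0 calls among 13 genes tested in males and 14 in females, with 4 (30.8%, beside 9.86% of all genes) and 1 (7.14%, beside 2.96%) passing the unadjusted threshold.

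The deposited ATAC-seq tables list 500-bp peaks by position and direction only, 102 increased and 77 decreased in male Midn-T livers and 150 increased and 67 decreased in female ones. The authors selected the male list on the unadjusted p and the female list on the false discovery rate, so the lists of the sexes rest on different thresholds. The paper reports that no male peak passed its threshold on the false discovery rate, and it treats the male list as exploratory. A male peak is therefore a listed position and not an established change of accessibility. The titles of 5 of the 8 ATAC-seq samples contradict their other labels in sex or genotype, so a direction holds only as far as the deposited lists do. Of the 396 peaks, 2 lay inside a receptor gene or within 50 kb of one. The first, decreased in males, was at chr10:93983596-93984096 (GRCm39) over the first exons of Nr2c1 on the plus strand, its centre 49 bp downstream of the nearest annotated start site, with 11 annotated transcript starts inside it. Nr2c1 mRNA had a log2 fold change of -0.0038 ± 0.12 in the same sex. The second, decreased in females, was intergenic at chr2:163437980-163438480, 23150 bp beyond the end of Hnf4a, and the nearest protein-coding start site, 5975 bp away, was that of Ttpal. Hnf4a mRNA had 0.043 ± 0.10 in that sex.

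The sequences at these 2 peaks were read from GRCm39, 5′ to 3′ on the plus strand, to show which receptor hexamers they hold. The first line, chr10:93983840-93983869, has in capitals the 2 matches in the Nr2c1 peak to GGGTCA, a close variant of the core hexamer, facing each other with 7 bases between. The second line, chr2:163438159-163438458, has in capitals the 2 matches to AGGTCA, both on the minus strand, in the peak beyond Hnf4a. That peak also holds 1 match to GGGTCA, left in small letters, and the Nr2c1 peak holds 0 matches to AGGTCA.
Nr2c1 peak: agggtgGGGTCAcgaactcTGACCCccacc
Peak beyond Hnf4a: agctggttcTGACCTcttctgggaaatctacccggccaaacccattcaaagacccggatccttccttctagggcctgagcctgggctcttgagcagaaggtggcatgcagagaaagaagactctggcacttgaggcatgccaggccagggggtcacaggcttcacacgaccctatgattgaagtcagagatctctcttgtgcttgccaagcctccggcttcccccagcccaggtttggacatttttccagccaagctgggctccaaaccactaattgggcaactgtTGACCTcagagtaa

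Across all listed peaks, AGGTCA was searched without mismatch on both strands, together with its direct, inverted and everted repeats with 0 to 5 bases between. It was found in 43 of 102 peaks increased in males (42.2%, 95% Wilson interval 33.0 to 51.9) and in 23 of 77 decreased ones (29.9%, 20.8 to 40.8). In females it was found in 31 of 150 increased peaks (20.7%, 15.0 to 27.8) and in 33 of 67 decreased ones (49.3%, 37.7 to 60.9). Of 102466 genome windows of the same length 25.4% held it, and of 21770 windows centred on start sites of protein-coding genes 24.1%. The intervals of the male increased and the female decreased peaks lay above both shares. Neither kind of window was chosen as open liver chromatin, and the lists hold no unchanged peaks. Whether these shares exceed those of other open regions of liver was therefore not tested. The intervals count each peak as independent and do not measure the spread between mice. The male shares describe the exploratory list, in which no peak passed the threshold on the false discovery rate. The peaks of the 2 directions also differed in base composition. Mean GC content was 52.9% and 62.4% in the male increased and decreased peaks and 52.8% and 47.7% in the female ones. It was 41.8% in the genome windows and 54.8% in the start site windows, and the part of GC content in these shares was not tested.

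The hexamer that steroid receptors such as Nr3c2 read, AGAACA, was found in 30.4% of the male increased and 11.7% of the male decreased peaks. In females it was found in 29.3% of the increased and 61.2% of the decreased peaks (41 of 67, 49.2 to 72.0), beside 40.1% of the genome windows and 26.7% of the start site windows. The female decreased peaks thus had the highest share of both hexamers among the 4 groups. They also had the lowest mean GC content of the 4, and the male decreased peaks, with the lowest share of AGAACA, had the highest. The part of GC content in the AGAACA shares was not tested either. An inverted pair of this hexamer with 3 bases between, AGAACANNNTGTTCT, stood in 1 of the 67 female decreased peaks (1.49%, 0.264 to 7.98), in 0 peaks of the other 3 groups and in 0.00976% of the genome windows. Other steroid receptors, such as those for glucocorticoids and androgens, read the same letters.

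**Figure D5:**
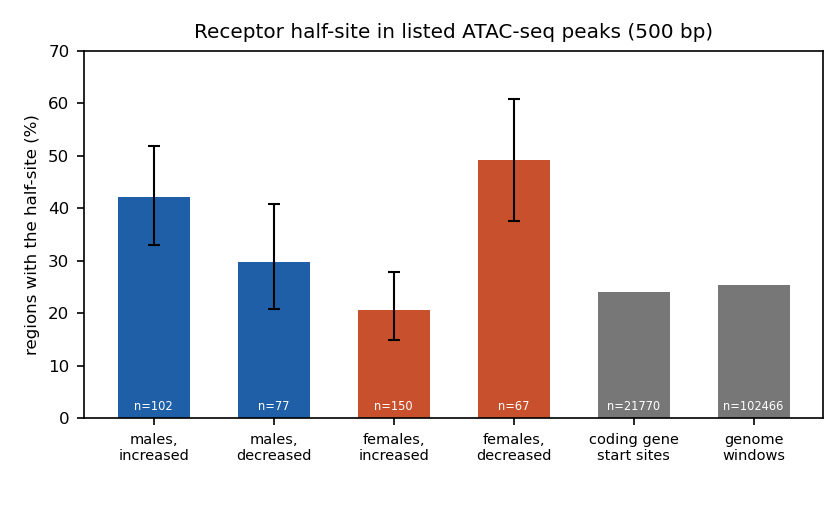
Percentage of regions of 500 bp (vertical axis) that hold AGGTCA on either strand, for the listed peaks of each sex and direction, with 95% Wilson intervals as bars, and for windows at protein-coding start sites and across the genome, which have no interval drawn. The male increased peaks at 42.2% and the female decreased peaks at 49.3% stand above the genome windows at 25.4%, and the number of regions stands inside each column. The windows were not chosen as open chromatin of liver. The male peaks are an exploratory list selected on the unadjusted p.

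Of the repeats of AGGTCA, only the direct repeat with 1 base between (DR1, AGGTCANAGGTCA), the arrangement read by HNF4A dimers and by RXR with a PPAR, was found in a listed peak, in 2 of 102 male increased peaks (1.96%, 0.539 to 6.87) and 1 of 150 female increased peaks (0.667%, 0.118 to 3.68), beside 0.0761% of the genome windows. The male peaks lay 30688 bp from the nearest coding start site, that of Adk, and 16827 bp from that of Hopx, and the female peak lay 29977 bp from that of Zfp652, inside an intron of it. The 120 bases around the match in the first male peak overlapped an annotated exon of Adk and are not printed here. Hopx had a log2 fold change of 0.062 ± 0.20 in males, Adk of -0.012 ± 0.12 in males and Zfp652 of 0.020 ± 0.093 in females. The lines give the DR1, in capitals, within chr5:77279980-77280099 near Hopx and chr11:95669795-95669914 in Zfp652 (GRCm39, plus strand).
Peak near Hopx: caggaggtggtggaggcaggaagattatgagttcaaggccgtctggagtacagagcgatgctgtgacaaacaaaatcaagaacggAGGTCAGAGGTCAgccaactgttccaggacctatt
Peak in Zfp652: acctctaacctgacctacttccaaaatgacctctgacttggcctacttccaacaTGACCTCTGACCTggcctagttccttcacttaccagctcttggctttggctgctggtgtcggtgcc

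The receptors' own promoters were read from RefSeq (GRCm38.p6), as 300 bases from 250 before to 50 after a start site, and 28 of the 30 genes matched, with 47 promoters. AGGTCA stood in 10 of these promoters (21.3%), of 9 genes (Nr1h4, Nr5a2, Nr6a1, Pparg, Rara, Rarg, Rxra, Rxrg and Thrb), beside 16.3% of all 32851 promoters. No receptor promoter held a repeat of it with up to 5 bases between, and among all promoters DR1 stood in 0.0396%. The promoter of Rarb held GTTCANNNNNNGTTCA, the form of its known retinoic acid response element, which stood in 0.0761% of all promoters and in no other receptor promoter. The first line shows, in capitals, that element in the 250 bases before the Rarb start site, at chr14:16575477-16575726 on the minus strand of GRCm38.p6. The second shows AGGTCA, on its opposite strand, before the start site of Nr1h4, the bile acid receptor gene, at chr10:89506659-89506908 on the minus strand.
Rarb promoter: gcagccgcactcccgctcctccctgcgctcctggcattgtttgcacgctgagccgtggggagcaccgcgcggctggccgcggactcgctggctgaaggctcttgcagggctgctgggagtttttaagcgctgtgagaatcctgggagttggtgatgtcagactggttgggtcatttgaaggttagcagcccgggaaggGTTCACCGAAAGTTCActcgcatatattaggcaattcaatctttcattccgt
Nr1h4 promoter: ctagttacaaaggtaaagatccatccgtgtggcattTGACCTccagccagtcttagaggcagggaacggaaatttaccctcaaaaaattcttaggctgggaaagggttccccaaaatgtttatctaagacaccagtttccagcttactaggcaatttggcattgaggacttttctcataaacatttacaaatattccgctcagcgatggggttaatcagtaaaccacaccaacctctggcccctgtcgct

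A match to these letters describes a sequence and does not show that a receptor binds there. No listed peak lay within 100 kb of Rarb, of Nr1i3 or of Nr1h4, so the accessibility of these genes is not described by the deposited lists, which hold only peaks past the authors' threshold.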

How the data were processed

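Livers of 12 mice were profiled by RNA-seq, and 8 ATAC-seq samples, grouped by library name and characteristics, stand behind the peak lists. The authors aligned RNA-seq reads to GRCm39 with STAR 2.7, counted them per gene by strand with HTSeq and ran DESeq2 within each sex. The deposited signal is a mean over 6 libraries of the authors' counts after scaling by size factors. The deposited log2 values are fold changes and their standard errors, the deposited score is the Wald statistic, and the deposited p-value columns are two-sided Wald p-values and their adjusted values. For ATAC-seq, the authors called peaks with MACS2 and tested them with edgeR; per the study's methods the female list was selected on the false discovery rate and the male list, as an exploratory one, on the unadjusted p. The deposited lists hold positions and directions without a measurement. Depth per library is unknown.

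The Benjamini-Hochberg adjustment was repeated on the deposited p-values of all genes that carry an adjusted one, and the result differed by at most 1.82e-05. Genes were called under 0.1, and sexes were compared by a two-sided z-test. Adjusted p-values rest on the spread between 3 mice a group. Levels were divided by the merged exon length of GENCODE M39. Peak starts were taken as counted from 0, and genome windows were every 50th window of 500 bp without unknown bases. The tools were pandas 2.3.3, numpy 2.4.6, scipy 1.17.1, matplotlib 3.10.9 and pyfaidx 0.9.0.4 under Python 3.11.15, and the tests were also run on simulated fold changes. Those were drawn with the deposited standard errors, so the simulation could not show whether these errors fit the spread of the real data.

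The receptors and the gene lists were chosen with earlier results of these data known. Named genes are all 30 receptors, Midn, every listed target, cofactor or factor gene called in either sex and the first 2 genes written in each target list. The peaks within 50 kb of a receptor were named as well. The AGAACA, DR1 and retinoic acid element sequences, Nr0b2 beyond that rule, and the genes nearest to DR1 peaks were named after their values were seen. So were Alas1, Angptl4 and Scd1, which only the scaled statistic called in females. The remaining members of the receptor family are not reported here as a group. Protein sequences of the receptors were not analysed here.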

Additional observations from a re-analysis of the deposited data

Results flagged for a closer look

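Among the 89 target genes of the receptors tested in both sexes, 3 (3.37%) had a log2 fold change that differed between the sexes, beside 0.337% of all genes. The test was the z-test on the difference itself, at an adjusted p under 0.1. None of the 28 receptors tested in both sexes, which do not include Nr0b2, was called. Slco1a4, the transporter among the PXR and CAR targets, differed by 1.09 (95% interval 0.60 to 1.58), with 0.76 in males and -0.33 in females. Slc10a1, the bile acid uptake transporter, differed by 0.68 (0.34 to 1.03), with 0.72 in males and 0.035 in females. Nr0b2, the FXR-induced repressor, differed by -0.97 (-1.49 to -0.44), with -0.55 in males and 0.41 in females, and this call does not hold at an adjusted p under 0.05. In none of the 3 could single mice be examined.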

How the results depend on the processing

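No paired analysis was possible because the deposited tables hold no value for a single library, and for the same reason no replicate was left out in turn. The count of 0 receptors called in males and in females held at an adjusted p under 0.05, with adjustment over every gene with a p-value or over genes tested in both sexes, for genes with a mean of at least 100 and with the Wald statistic divided by its robust standard deviation. The count of 0 for a difference between the sexes also held at an adjusted p under 0.05 and with the scaled statistic. At an unadjusted p under 0.05, 4 receptors passed in males and 3 for the difference between the sexes. Target genes called in males went from 6 to 3 at an adjusted p under 0.05, to 1 with the scaled Wald statistic and to 25 unadjusted, and in females from 2 to 1, 7 and 13. The unadjusted counts were 28.1% of 89 tested in males, beside 9.86% of all genes. In females they were 13.8% of 94, beside 2.96%. Those lost in males at 0.05 were Cyp8b1, Fasn and Tgm2, and in females Fkbp5. Adjustment over every gene lost the same 3 male genes (adjusted p from 0.148 to 0.183) and added Cyp2b9 (0.0478), and the scaled statistic left only Slc10a1 (0.00901) in males. In females the scaled statistic kept Pltp and Fkbp5 and added Alas1 (0.00614), Angptl4 (0.0106), Nr0b2 (0.0148), Tsc22d3 (0.0292) and Scd1 (0.0443). For the difference between the sexes, scaled standard errors, a setting chosen for the target genes after seeing the data, left Slco1a4 (0.0222) and Slc10a1 (0.0575) called and lost Nr0b2 (0.132). With GGGTCA counted beside AGGTCA, the shares were 55.9% and 50.6% in the male increased and decreased peaks and 37.3% and 67.2% in the female ones, beside 37.7% of the genome windows and 40.9% of the start site windows. Within 10 kb, 1 listed peak lay at a receptor gene. By longest transcript, 19 and 20 receptors reached 100 per kb in males and females. In males the Wald statistics of all genes had a robust standard deviation of 1.11, and in females of 0.776, where a standard normal statistic has 1. The p-values of the 2 sexes are therefore not on an equal scale. The part of this scale in the different counts of calls in males and females was not tested. The comparison of receptor proteins was not run.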
